A study of Mus musculus with 4 samples.

Results

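The genes described here encode glycosyltransferases of the Golgi, the enzymes that build the sugar chains of mucins and of related glycoproteins and glycolipids. They were taken by symbol: the families Galnt, C1galt1, B3gnt, B4galt, B3galt, B4galnt, Gcnt, St3gal, St6gal (which takes in St6galnac), St8sia and Fut. For each gene the listed transcript with the highest mean over the 4 libraries was kept. The rule found 76 of the 25796 genes in the deposited table, with 288 of its 87526 transcripts. They comprise 75 genes with a role in glycosylation and 1 transcribed pseudogene, Fut4-ps1.

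RNA was sequenced from epithelial cells of mouse colon, released from opened tissue by shaking in a buffer with EDTA, DTT and a ROCK inhibitor. There were 2 libraries labelled Ythdf1 KO (KO 1 and KO 2) and 2 labelled WT (WT 1 and WT 2), all of them inputs, that is, total RNA before enrichment for N6-methyladenosine (m6A). Ythdf1 encodes a cytoplasmic protein that binds m6A in mRNA. The sources used here do not give strain, age, sex, the altered part of the gene or whether each library came from its own mouse. A p-value below therefore speaks only of the spread among the 4 libraries, and that spread could be technical.

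Mucin-type glycosylation begins when a polypeptide GalNAc-transferase (GALNT) places N-acetylgalactosamine on serine or threonine. Other enzymes then build a core on that sugar, extend the core with galactose and N-acetylglucosamine, and cap the chain with sialic acid, fucose or GalNAc. In colon the heavily glycosylated mucin of goblet cells forms the mucus gel, and colonocytes carry transmembrane mucins. Several enzymes of these families also act on N-glycans, gangliosides or proteoglycans.

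Values are normalised read counts as the authors deposited them. In each library each value was a whole number of steps (within 0.001), the step being 0.969 in KO 1, 0.827 in KO 2, 1.13 in WT 1 and 1.01 in WT 2. Counted in these steps, the kept transcripts of all genes came to 21686140 to 30951138 per library. The values are not divided by transcript length, so the level of a gene is compared between libraries and not with that of another gene. Ythdf1 itself stood at 1752 in KO 1 and 1737 in KO 2, against 1088 in WT 1 and 775 in WT 2. The targeted gene was thus not lower but higher in the libraries labelled KO, at a ratio of group means of 1.87. The authors' deposited table gives q = 0.0145 for it, and the limma-trend test described below an adjusted p = 0.759. Every direction below follows the labels. Markers of colon epithelium were high in all 4 libraries: Krt8, an epithelial keratin, had means of 110956 ± 11619 in labelled KO and 101883 ± 6164 in WT libraries (SD, n = 2 each). Car1, a carbonic anhydrase of colonocytes, stood at 73552 in KO 1 and 42374 in KO 2, against 102727 in WT 1 and 116128 in WT 2. Of the 10 epithelium markers, 2 had both labelled KO libraries above both WT libraries and 3, Car1 among them, both below. Among all genes with a mean of at least 1000 these shares were 25.0% and 11.2%. On the log2 scale described below, 7 of the 10 differences were above 0, with a median of 0.11. The 7 leukocyte markers summed to 501 to 654 in labelled KO and 848 to 1196 in WT libraries. Ptprc and Itgam had the highest means of the 7. Their ratios of group means were 0.392 and 0.842, and that of Cd3e was 0.415. Cd68, Jchain and Cd79a had ratios of 1.01, 1.00 and 1.45, and Lyz2 was at 0 in both labelled KO libraries. The 9 listed markers of stroma, muscle, vessels and nerve summed to 999 to 1378 in labelled KO and 1202 to 2928 in WT libraries. The part of these other cells in the results below was not tested.

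No glycosyltransferase gene passed the test between the labelled groups. Differences are on the log2(value + 1) scale, labelled KO minus WT, and were tested with limma-trend and Benjamini-Hochberg adjustment over the 23116 genes that reached 1 in 2 or more libraries. Of the 76 members, 74 met that filter. None of the 74 passed an adjusted p of 0.05, and the share over all genes was 0.0%. At an unadjusted p under 0.05 there were 4 members, St3gal6, B4galt1 and B3gnt7 higher (1.92% of all genes were higher at that limit) and Galnt14 lower in labelled KO (3.52% of all genes were lower). In either direction 5.44% of all genes, 1257, met the limit, and the share of members is near that background. In bulk RNA, fewer cells of a type and less RNA per cell cannot be told apart, and this holds for every value below.

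The members leaned slightly towards the labelled KO libraries. Their median log2 difference was 0.11, against -0.09 for all genes tested, and 44 of the 74 differences were above 0. At a mean of at least 1000 the medians were closer, 0.14 for the members and 0.08 for all genes. They were further apart at the lower levels, 0.15 and -0.11 from 100 to 1000, and -0.28 and -0.68 under 100. Both labelled KO libraries lay above both WT libraries for 17 of the 76 members (22.4%), where 13.2% of all genes did so. Both lay below for 9 (11.8%), where 19.2% of all genes did so. These shares of all genes are the background for each such count below, and they depend on level. Among genes with a mean of at least 1000, 25.0% lay above and 11.2% below, and of the 31 members at that level 10 lay above and 2 below. Leaving out any 1 library makes such a separation easier and gave 27 to 37 members above (37 without KO 1, 30 without WT 1, 28 without WT 2, 27 without KO 2) and 17 to 22 below. Summed over the 76 members, the value was 150459 in KO 1 and 162500 in KO 2, against 140403 in WT 1 and 141860 in WT 2. As a share of each library's total this was 0.598% and 0.635% in labelled KO, against 0.574% and 0.572% in WT.

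**Figure D1:**
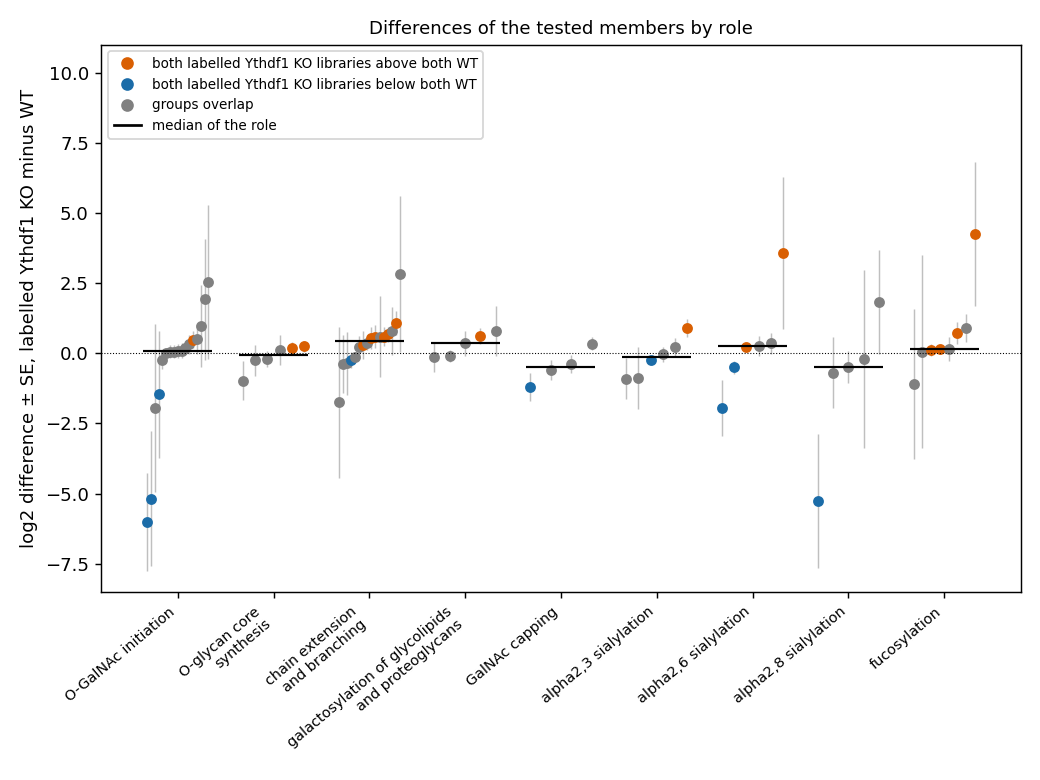
Log2 difference of each of the tested members, labelled Ythdf1 KO minus WT, grouped by role, with its SE from limma-trend (vertical axis, log2 scale). Black bars are role medians, orange points have both labelled KO libraries above both WT libraries, and blue points both below. The Fut4-ps1 pseudogene has no role and is not drawn. Chain extension and branching enzymes have a median of 0.45 and GalNAc capping enzymes one of -0.50.

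The lowest members by level were also the least repeatable. Of the 18 members with a mean under 100, 14 differed over 5-fold, on the value + 1 scale, between the libraries of at least 1 group, as 78.4% of all genes at that level did. From 100 to 1000 this held for 4 of 27 members, and at 1000 or more for 0 of 31. Galnt13 shows the size of this spread, with 130 in KO 1 and 4.14 in KO 2, against 2.25 in WT 1 and 5.05 in WT 2. Of these 18 members, 9 were listed at 0 in at least 1 library.

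**Figure D2:**
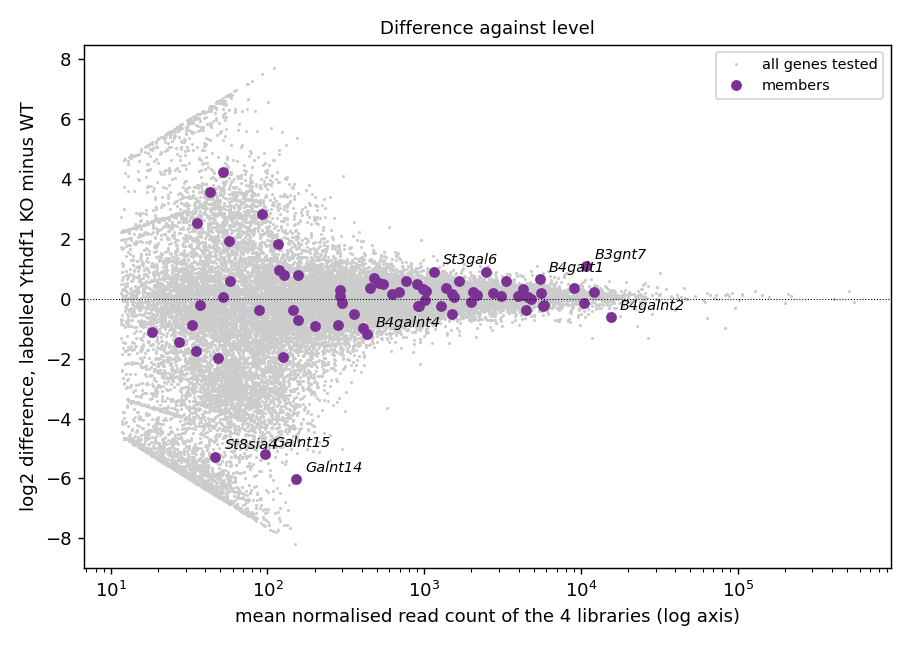
Log2 difference, labelled Ythdf1 KO minus WT, against the mean normalised read count of the 4 libraries (log axis) for all genes tested (grey) and for members (purple). Differences fan out at low levels, where Galnt14, Galnt15 and St8sia4 lie, and members with a mean of at least 1000 stay between about -0.61 and 1.10.

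The 7 GALNT genes with a mean of at least 1000 had overlapping groups, while those with a lower mean, which start the same O-glycans, differed more and in both directions. Of the 17 listed, 1 (Galnt5) lay above and 3 (Galnt14, Galnt15, Galnt18) below both WT libraries, and the median log2 difference was 0.09. Galnt5 stood at 1147 and 964 in labelled KO, against 824 and 684 in WT (adjusted p = 0.792). Galnt4, which also glycosylates partly modified peptides, stood at 6856 in KO 1 and 5014 in KO 2, against 5158 in WT 1 and 5152 in WT 2. Galnt6, another member of this family, stood at 4378 and 5199 in labelled KO, against 4374 and 5177 in WT. Its groups cover the same range (log2 difference 0.0036 ± 0.18, SE). Galnt1, Galnt2, Galnt3, Galnt7, Galnt10 and Galnt12, with ratios of group means from 0.83 (Galnt2) to 1.29 (Galnt3), had overlapping groups too. So had 5 genes with larger log2 differences, -1.96 for Galnt16, 0.51 for Galnt11, 0.97 for Galntl6, 1.93 for Galnt9 and 2.55 for Galnt13. Galnt18 had -1.45 without overlap (limma-trend adjusted p at least 0.851 for each of the 6). Galnt16 stood at 0 and 96.0 in labelled KO, against 16.9 and 80.8 in WT. Its -1.96 thus rests on the 0 in KO 1, and its ratio of group means was 0.98.

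Galnt14, a GALNT gene with little RNA here, gave the smallest p-value of all 87526 transcripts in the authors' deposited table, but its transcripts do not share the difference. Its kept transcript (gene ID 71685, XM_006524940.3, mm10 chromosome 17, 73514615 to 73710751, minus strand) stood at 3.88 in KO 1 and 3.31 in KO 2, against 358 in WT 1 and 245 in WT 2. Both labelled KO libraries lay far below both WT libraries, with means of 3.59 ± 0.403 and 302 ± 80.0 (SD, n = 2 each). The authors' deposited table gives a log2 fold change of -6.40 with p = 5.19e-13 and q = 2.30e-08. By limma-trend its log2 difference came to -6.02 ± 1.74 (SE; unadjusted p = 0.012, adjusted p = 0.759).

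The curated RefSeq transcript of the same gene, NM_027864.2, stood at 13.6 in KO 1 and 51.3 in KO 2, against 11.3 in WT 1 and 46.4 in WT 2, and its groups overlap. In the authors' deposited table this transcript has a log2 fold change of 0.17 with q = 0.991. Both other listed transcripts are predicted models, XM_006524939.3 with 3.88 and 24.0 in labelled KO against 204 and 146 in WT, and XM_006524941.3 with 13.6 and 49.6 against 234 and 105. The low level in labelled KO libraries thus holds for 3 predicted models and not for the curated transcript. Which exons carry the reads was not analysed here.

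**Figure D3:**
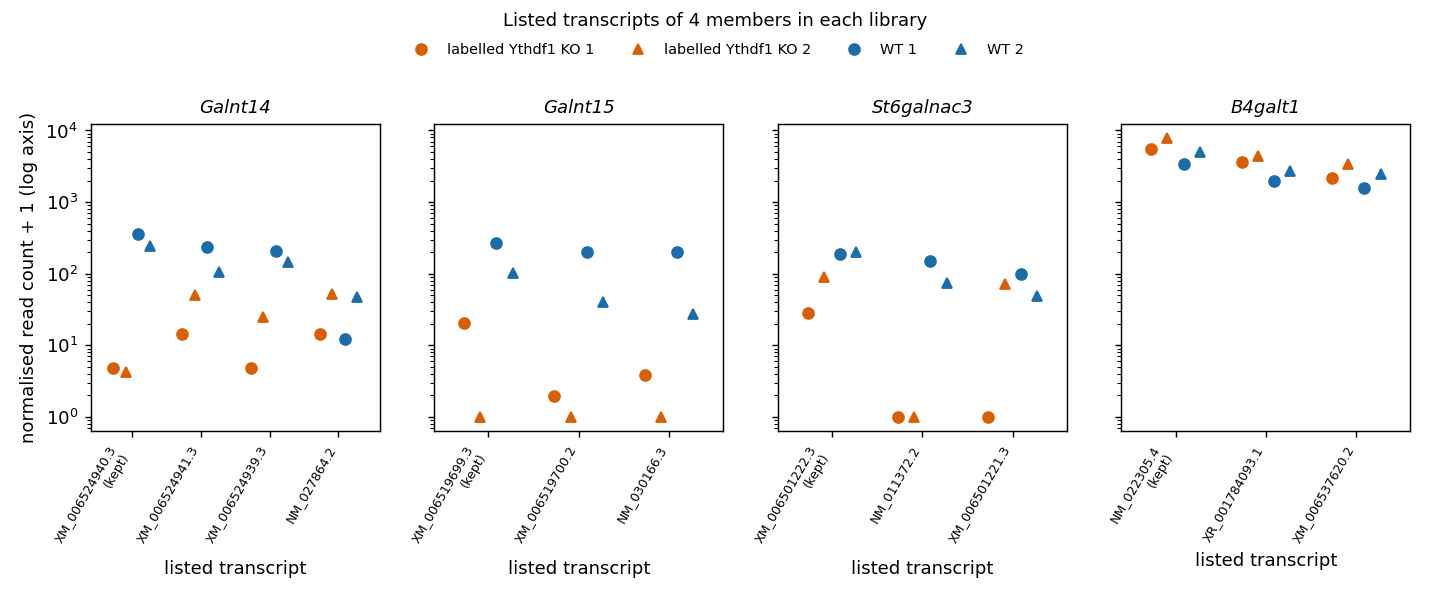
Normalised read count + 1 (log axis) of every listed transcript of Galnt14, Galnt15, St6galnac3 and B4galt1 in each library, labelled Ythdf1 KO in orange and WT in blue, with the kept transcript marked. Within NM_027864.2 of Galnt14 the WT and labelled KO points overlap, while within each of the other 3 Galnt14 transcripts both WT points lie above both labelled KO points.

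Galnt15, also of the GALNT family, had all 3 listed transcripts lower in the labelled KO libraries. The kept transcript stood at 19.4 in KO 1 and 0 in KO 2, against 264 in WT 1 and 101 in WT 2 (adjusted p = 0.759 in limma-trend). The curated transcript NM_030166.3 stood at 2.91 and 0 in labelled KO, against 200 and 26.2 in WT, so WT 1 was far above WT 2. The authors' deposited table gives q = 0.139 for the kept transcript, 0.0473 for NM_030166.3 and 0.0113 for XM_006519700.2. The 76 members had 6 transcripts of 5 genes with q under 0.05 in the authors' deposited table, or 2.08% of their transcripts, where 3.67% of all transcripts were below that limit. The 5 genes are Galnt14, Galnt15, St6galnac3 and St8sia4, all lower in labelled KO, and B4galt1, higher. On the kept transcripts alone the authors' deposited table called 0 members higher, where 1.24% of all genes were called, and 2 lower (Galnt14 and St8sia4), where 3.23% were.

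On their kept transcripts, the enzymes that form the O-glycan cores had small differences or groups that overlap. C1galt1, the synthase of core 1, stood at 2322 in KO 1 and 2139 in KO 2, against 1936 in WT 1 and 1830 in WT 2. Both labelled KO libraries lay above both WT libraries, at a ratio of 1.18 (log2 difference 0.24 ± 0.21, SE, adjusted p = 0.82). C1galt1c1, or Cosmc, the chaperone that the core 1 synthase needs, stood at 311 and 276 in labelled KO, between the 358 and 207 of WT. Gcnt1, which makes core 2 from core 1, stood at 1627 and 1557 in labelled KO, just above the 1551 and 1279 of WT.

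B3gnt6, the synthase of core 3 that is characteristic of colon mucin, stood at 926 in KO 1 and 652 in KO 2, against 1599 in WT 1 and 536 in WT 2. The WT libraries alone span both labelled KO values, so a difference between the groups was not detectable here (log2 difference -0.25 ± 0.55, SE). Gcnt3, which makes core 2 and core 4 in mucus-secreting tissue, stood at 7052 and 4016 in labelled KO, against 5890 and 6428 in WT. Gcnt4, another core 2 enzyme, stood at 489 and 130 in labelled KO, against 476 and 524 in WT. For Gcnt3 and the kept transcript of Gcnt4, KO 2 was the low library and KO 1 lay near WT. Gcnt4 has 7 listed transcripts, of which 6 lay below both WT libraries in both labelled KO libraries and 0 above. Isoforms share reads, so these are not independent.

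**Figure D4:**
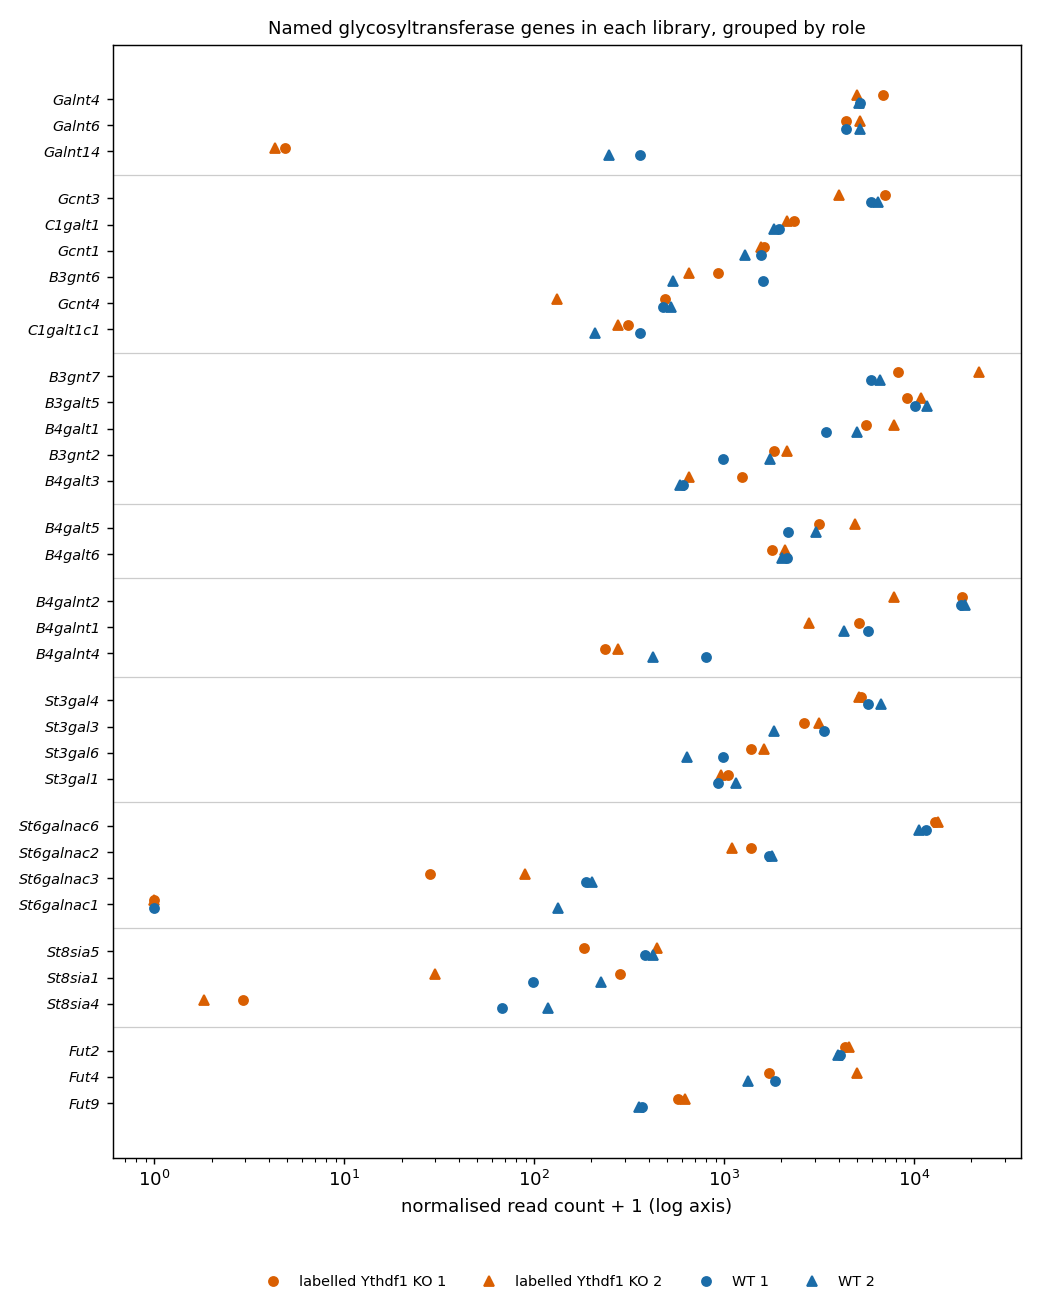
Normalised read count + 1 (log axis) of named glycosyltransferase genes in each library, grouped by role, with labelled Ythdf1 KO in orange and WT in blue, circles for replicate 1 and triangles for replicate 2. For B3gnt7, Fut4, B4galnt2 and Gcnt4 the KO 2 triangle stands apart from the other 3 libraries.

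Enzymes that extend and branch the chains had the highest median difference of the roles, which was not tested against that of the other roles. Of the 16 genes, 6 lay above both WT libraries (B3gnt2, B3gnt7, B3gnt9, B4galt1, B4galt3 and Gcnt2) and 1 (B4galt4) below, with a median log2 difference of 0.45. The share above was 37.5%, where 13.2% of all genes and 25.0% of those with a mean of at least 1000 lay above. For the share below these were 6.25%, 19.2% and 11.2%. None of the 16 passed the adjusted test. Their summed value was 36883 in KO 1 and 59258 in KO 2, against 32085 in WT 1 and 35923 in WT 2, so KO 1 was close to WT 2 and KO 2 far above.

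B3gnt7, a GlcNAc-transferase that elongates galactose-containing chains such as keratan sulphate, had the largest part in the sum of KO 2. It stood at 8215 in KO 1 and 22013 in KO 2, against 5949 in WT 1 and 6643 in WT 2. Both labelled KO libraries were above both WT libraries, but KO 2 was far above KO 1. The log2 difference was 1.10 ± 0.43 (SE; unadjusted p = 0.0414, adjusted p = 0.759 in limma-trend), and 0.39 without KO 2. The authors' deposited table gives q = 0.342.

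B4galt1, a galactosyltransferase that makes N-acetyllactosamine on many glycans, stood at 5588 in KO 1 and 7819 in KO 2, against 3441 in WT 1 and 5003 in WT 2. The groups do not overlap, with means of 6704 ± 1578 and 4222 ± 1104 (SD, n = 2 each) and a ratio of 1.59. The log2 difference was 0.67 ± 0.25 (SE; unadjusted p = 0.0378, adjusted p = 0.759), and it was 0.40 without WT 1 and 0.43 without KO 2. A noncoding transcript of the same gene, XR_001784093.1, has q = 0.0118 and a log2 fold change of 0.80 in the authors' deposited table, and the kept coding transcript has q = 0.074.

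B4galt3, of the same family, stood at 1234 in KO 1 and 653 in KO 2, against 609 in WT 1 and 585 in WT 2, so that KO 1 alone was clearly apart (log2 difference 0.59, and 0.13 without KO 1). B3gnt2, the main enzyme of poly-N-acetyllactosamine, stood at 1831 and 2136 in labelled KO, against 985 and 1731 in WT (log2 difference 0.60, and 0.19 without WT 1). B3galt5, which makes type 1 chains, stood at 9153 and 10863 in labelled KO, against 10069 and 11745 in WT, with overlapping groups. B3gnt3, which extends core 1, stood at 8044 and 12323 in labelled KO, against 8325 and 7250 in WT, and was added to the named genes after its values were seen.

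Of the 5 galactosyltransferases of glycolipids and proteoglycans, 1 lay above both WT libraries. B4galt5, a lactosylceramide synthase that begins most glycosphingolipids, stood at 3155 in KO 1 and 4899 in KO 2, against 2171 in WT 1 and 3057 in WT 2. Its groups touch nearly, at a ratio of 1.54 (log2 difference 0.61 ± 0.29, SE, adjusted p = 0.759). The difference was 0.29 without KO 2 and 0.36 without WT 1, and 0.93 without KO 1. B4galt6, its partner in that step, stood at 1788 and 2084 in labelled KO, against 2145 and 2001 in WT, and the groups overlap.

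The kept transcript of 33 members begins exactly at a RefSeq start site, and 10 of these had groups that do not overlap. The bases before the start are shown for 4 of the 10, B3gnt7, B4galt5, St6galnac6 and St8sia4, chosen after their sequences and values were seen so that they run over the range of GC boxes found among the 10, 0 to 7. St6galnac6 and St8sia4 are described with the sialyltransferases below. Each run is the 250 bases before the start, 5′ to 3′ on the gene's strand, from RefSeq on GRCm38.p6: chr1:86302971-86303220 (plus) for B3gnt7, chr2:167349179-167349428 (minus) for B4galt5, chr2:32599459-32599708 (plus) for St6galnac6 and chr1:95667595-95667844 (minus) for St8sia4. Capitals mark the GC box GGGCGG, bound by Sp factors, and the CCAAT box, each on either strand.
B3gnt7: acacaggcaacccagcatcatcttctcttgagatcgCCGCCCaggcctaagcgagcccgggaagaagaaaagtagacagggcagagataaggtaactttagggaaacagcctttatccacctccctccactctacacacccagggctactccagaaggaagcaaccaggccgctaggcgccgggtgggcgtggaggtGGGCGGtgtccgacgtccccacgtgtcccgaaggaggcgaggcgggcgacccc
B4galt5: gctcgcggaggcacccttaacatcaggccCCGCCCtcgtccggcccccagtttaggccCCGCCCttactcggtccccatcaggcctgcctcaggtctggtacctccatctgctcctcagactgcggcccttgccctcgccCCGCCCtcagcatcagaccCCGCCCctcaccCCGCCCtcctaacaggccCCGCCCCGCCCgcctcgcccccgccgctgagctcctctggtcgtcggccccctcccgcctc
St6galnac6: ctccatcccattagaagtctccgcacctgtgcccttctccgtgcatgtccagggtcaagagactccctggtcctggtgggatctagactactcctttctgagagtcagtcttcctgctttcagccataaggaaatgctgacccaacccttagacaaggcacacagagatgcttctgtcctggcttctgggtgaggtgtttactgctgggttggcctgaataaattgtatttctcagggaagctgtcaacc
St8sia4: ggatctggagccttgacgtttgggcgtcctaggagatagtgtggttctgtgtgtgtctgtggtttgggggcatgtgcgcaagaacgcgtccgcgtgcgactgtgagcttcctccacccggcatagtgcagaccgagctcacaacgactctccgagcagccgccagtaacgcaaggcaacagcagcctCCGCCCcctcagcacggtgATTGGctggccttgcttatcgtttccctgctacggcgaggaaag
The B4galt5 window holds 7 GC boxes, of which a pair overlaps in 1 run, the B3gnt7 window 2, the St8sia4 window 1 and a CCAAT box, and the St6galnac6 window 0 of either. Most of the St6galnac6 window lies inside the kept transcript of St6galnac4, another member (chromosome 2, 32587078 to 32599696, plus strand). That stretch is thus the 3′ end of a neighbouring gene as well as the sequence before the St6galnac6 start. None of the 4 holds TATAAA on either strand. RefSeq windows were at hand for 54 of the 76 members, 74 windows in all. A GC box was found in 37 of the 74 and in 32.7% of all 32851 windows, and CCAAT in 29.7% and 33.8%. TATAAA was found in 2.70% of the members' windows, against 12.4% of all windows. These letters describe the sequence and not the binding of a factor.

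GalNAc capping enzymes had a median log2 difference of -0.50 over 4 genes, with 1 below both WT libraries and 0 above. B4galnt2, which adds the GalNAc of the Sda antigen of the colon, stood at 17838 in KO 1 and 7840 in KO 2, against 17691 in WT 1 and 18461 in WT 2. KO 1 lay within the WT range and KO 2 far below every other library, so the mean log2 difference of -0.61 ± 0.36 (SE) was -0.02 without KO 2. B4galnt1, the synthase of gangliosides GM2 and GD2, stood at 5139 and 2789 in labelled KO, against 5683 and 4282 in WT. B4galnt4, which forms N,N′-diacetyllactosamine, stood at 235 and 274 in labelled KO, against 799 and 419 in WT. It lay below both WT libraries at a ratio of 0.417 (unadjusted p = 0.0528, adjusted p = 0.759), and the authors' deposited table gives q = 0.0962. Its log2 difference of -1.19 was -0.72 without WT 1. B4galnt3, its relative, had overlapping groups at a ratio of 1.28.

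The order of the members' levels differed a little more between KO 2 and the other libraries than among those. Spearman's correlation of KO 2 with the other libraries over the 74 tested members was 0.924 to 0.935, and 0.939 to 0.957 among the other 3 libraries. These are descriptions across genes, which are not independent replicates, of libraries of different depth. Over all genes tested KO 2 was not lower in this way, at 0.838 to 0.848 against 0.829 to 0.843 among the others.

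Among the 6 genes of alpha2,3 sialylation, 1 lay above and 1 below both WT libraries, and the median log2 difference was -0.14. St3gal6, which caps type 2 chains and serves sialyl Lewis x, stood at 1376 in KO 1 and 1611 in KO 2, against 983 in WT 1 and 638 in WT 2. The groups do not overlap, with means of 1494 ± 167 and 810.5 ± 244 (SD, n = 2 each). The log2 difference was 0.91 ± 0.32 (SE; unadjusted p = 0.028, adjusted p = 0.759), and the authors' deposited table gives q = 0.0572. The log2 difference was 0.60 without WT 2 and 1.22 without WT 1. The gene has 14 listed transcripts, of which 10 lay above both WT libraries in both labelled KO libraries and 0 below. Their reads are largely shared, so they are not independent.

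St3gal4, which acts on the same kind of chain, went the other way, at 5263 and 5131 in labelled KO against 5686 and 6700 in WT. All 10 of its listed transcripts lay below both WT libraries, at a ratio of 0.839 on the kept transcript (adjusted p = 0.80). St3gal1, which sialylates core 1, stood at 1045 and 956 in labelled KO, against 923 and 1147 in WT, and the groups overlap. St3gal3, which acts on type 1 and type 2 chains, stood at 2614 and 3138 in labelled KO, between the 3337 and 1830 of WT.

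Among the 8 genes of alpha2,6 sialylation, 2 lay above both WT libraries (St6gal2 and St6galnac6) and 2 below (St6galnac2 and St6galnac3). St6galnac6, a sialyltransferase of gangliosides and of disialyl structures, stood at 12836 in KO 1 and 13303 in KO 2, against 11530 in WT 1 and 10632 in WT 2. All 7 of its listed transcripts lay above both WT libraries, at a ratio of 1.18 on the kept transcript (log2 difference 0.24 ± 0.13, SE, adjusted p = 0.759). St6galnac2, which sialylates the GalNAc of O-glycans, stood at 1387 and 1096 in labelled KO, against 1712 and 1790 in WT. The groups do not overlap, at a ratio of 0.709 (log2 difference -0.51 ± 0.25, SE, adjusted p = 0.759). Its kept transcript is a noncoding model, and the coding NM_009180.3 stood at 1387 and 998 in labelled KO, against 1470 and 1510 in WT, also without overlap.

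St6galnac1, the sialyl-Tn synthase known from goblet cells of the intestine, was listed at 0 in KO 1, KO 2 and WT 1 and at 132 in WT 2. It therefore did not meet the filter and has no test, like St6galnac5, listed at 0 in KO 1, KO 2 and WT 2 and at 86.8 in WT 1. St6galnac3, which acts on sialylated core 1 and on gangliosides, stood at 27.1 and 88.5 in labelled KO, against 186 and 201 in WT. Its curated transcript NM_011372.2 stood at 0 in both labelled KO libraries, against 151 and 73.7 in WT, with q = 0.00276 in the authors' deposited table. The kept model has q = 0.349 there.

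Among the 5 genes of alpha2,8 sialylation, 1 lay below both WT libraries and 0 above. St8sia4, a polysialyltransferase known for its action on the neural cell adhesion molecule, stood at 1.94 in KO 1 and 0.827 in KO 2, against 66.5 in WT 1 and 117 in WT 2. The labelled KO values correspond to 2 steps or fewer of the scale, and no ratio is given. The authors' deposited table has q = 0.0238, and limma-trend gave an adjusted p = 0.759 (unadjusted p = 0.0665). St8sia1, the GD3 synthase, stood at 281 and 29.0 in labelled KO, against 96.9 and 223 in WT. St8sia5, of the ganglioside branch, stood at 181 and 440 in labelled KO, against 382 and 420 in WT. St8sia1 and St8sia5 had overlapping groups. Markers of leukocytes and of stroma had medians below 0 in the same comparison (-1.32 over 7 genes and -0.70 over 9 genes), where all genes with a mean under 100 had a median of -0.68 and those from 100 to 1000 one of -0.11. Of the leukocyte markers 2 of 7, and of the stroma markers 3 of 9, lay below both WT libraries, and 0 above. Pdgfra, a receptor of fibroblasts and the stroma marker with q under 0.05 in the authors' deposited table, stood at 17.5 and 78.6 in labelled KO, against 276 and 349 in WT. Of the same list, Col1a2 and Des had log2 differences of 1.13 and 0.22, with overlapping groups. Col1a2 stood at 138 and 228 in labelled KO, against 9.02 and 665 in WT. By group means it was lower in labelled KO (ratio 0.543), while Des had a ratio of 1.04. The part of leukocytes and stroma in the low values of Galnt14, Galnt15, St6galnac3 and St8sia4 was not tested.

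Of the 8 fucosyltransferase genes, 4 lay above both WT libraries (Fut2, Fut7, Fut8 and Fut9) and 0 below, with a median log2 difference of 0.14. Over all genes 13.2% lay above and 19.2% below, and at a mean of at least 1000 the shares were 25.0% and 11.2%. Fut2, which makes the H antigen of secretory epithelium, stood at 4335 in KO 1 and 4540 in KO 2, against 4085 in WT 1 and 3991 in WT 2. The groups are narrow and do not overlap, at a ratio of 1.10 (log2 difference 0.14 ± 0.16, SE, adjusted p = 0.874). Fut9, which makes Lewis x, stood at 570 and 620 in labelled KO, against 367 and 356 in WT. Its ratio was 1.64 (log2 difference 0.71 ± 0.38, SE, adjusted p = 0.76), and leaving out any 1 library gave 0.65 to 0.77. Fut4, another alpha1,3-fucosyltransferase, stood at 1720 and 4970 in labelled KO, against 1842 and 1340 in WT, so that KO 2 alone was high and the log2 difference of 0.90 was 0.13 without it. Fut8, which adds the core fucose of N-glycans, had a ratio of 1.09. Fut7, known from leukocytes for sialyl Lewis x, stood at 83.4 and 101 in labelled KO, against 22.5 and 0 in WT. The pseudogene Fut4-ps1 was listed at 30.1 in KO 1 and 101 in WT 1, and at 0 in KO 2 and WT 2.

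The acceptors and the donors of these enzymes were looked at next. Of the 11 listed mucin genes, 0 lay above and 2 (Muc5ac and Muc16) below both WT libraries, with a median log2 difference of -0.09, the same as for all genes. Muc2, the gel-forming mucin of colon, was named for its role after its values were seen. It stood at 683863 in KO 1 and 402153 in KO 2, against 607023 in WT 1 and 515367 in WT 2, and the groups overlap. Muc16, a transmembrane mucin with little RNA here, stood at 208 and 117 in labelled KO, against 668 and 404 in WT, with q = 0.031 in the authors' deposited table and an adjusted p = 0.759 in limma-trend. Of the 10 goblet cell markers 2 lay above both WT libraries and 0 below, with a median log2 difference of 0.14. Tuft cell markers had 0 of 4 above and 1 (Dclk1) below, and enteroendocrine markers 0 of 4 on either side. The goblet regulator Creb3l1 had means of 11656 ± 1198 in labelled KO and 8291 ± 84.6 in WT libraries (SD, n = 2 each), and q = 0.00559 in the authors' deposited table.

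Genes of nucleotide sugar synthesis, which supply the donors, lay more often on the labelled KO side. Of 22 listed genes, 12 lay above both WT libraries in both labelled KO libraries (54.5%, against 13.2% of all genes and 25.0% of those with a mean of at least 1000) and 0 below. Their median log2 difference was 0.21, and none passed the adjusted test. Gne, the rate-limiting enzyme of sialic acid synthesis, stood at 13832 in KO 1 and 13938 in KO 2, against 10707 in WT 1 and 9759 in WT 2. The groups do not overlap, at a ratio of 1.36 (log2 difference 0.44 ± 0.13, SE; unadjusted p = 0.0115, adjusted p = 0.759), and the authors' deposited table gives q = 0.00402. The 12 also include Nans and Cmas of the sialic acid path, Gmds, Tsta3 and Fuk of the GDP-fucose path, and Gfpt1, Pgm3 and Uap1 of the UDP-GlcNAc path.

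**Figure D5:**
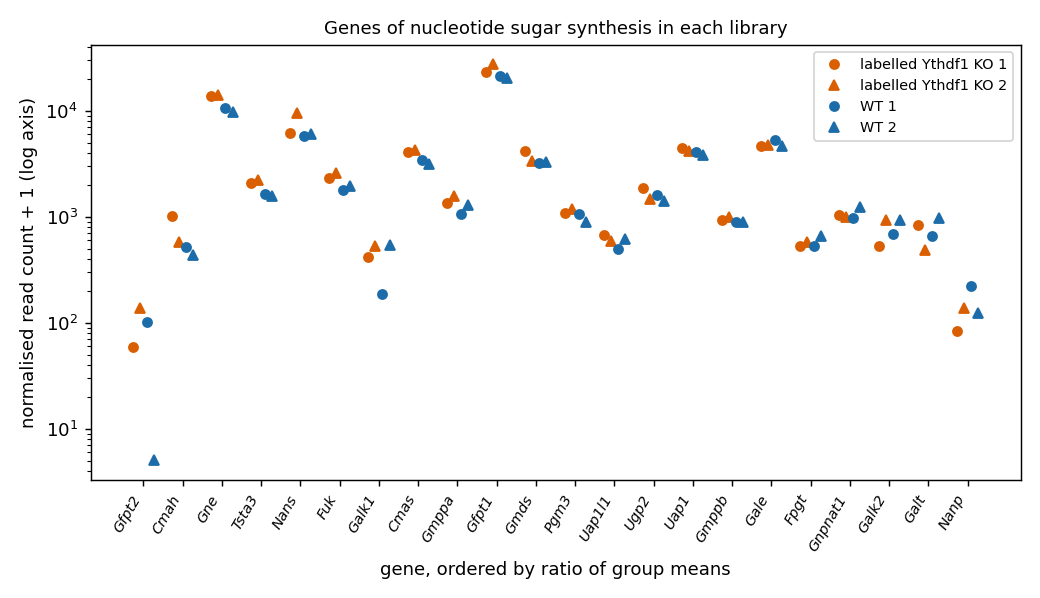
Normalised read count + 1 (log axis) of the 22 listed genes of nucleotide sugar synthesis in each library, ordered by the ratio of group means, labelled Ythdf1 KO over WT. Gne stands at 13832 and 13938 in labelled KO, against 10707 and 9759 in WT.

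The other lists of the pathway lay on both sides. Of 11 sulphotransferase genes of glycans, 2 lay above and 5 below both WT libraries, with a median of -0.41. Over all genes 13.2% lay above and 19.2% below. Chst1, Chst2 and Gal3st3, which are among the 5, had means under 100. At that level 21.5% of all genes lay below and the median was -0.68. Gal3st1 and Gal3st2, also among the 5, had means of 1464 and 493 and ratios of 0.723 and 0.807. Chst4 and Chst7 lay above, with means of 1211 and 23.7 and ratios of 1.84 and 1.54. Chst1, the sulphotransferase of keratan sulphate galactose, stood at 4.85 and 0.827 in labelled KO, against 86.8 and 182 in WT, with q = 0.0104 in the authors' deposited table. Of the 8 Golgi transporters of nucleotide sugars and phosphosulphate, 2 lay above and 1 below. Slc35c1, the GDP-fucose transporter, had a ratio of 1.14, and Slc35d1, a UDP-sugar transporter, one of 0.707. The 8 genes of the COG complex, which keeps glycosyltransferases in the Golgi, had 1 member above (Cog3, ratio 1.53), 1 below (Cog2) and a median of 0.01, and Cog1 had a ratio of 1.06. Of the 8 remaining enzymes of mucin-type glycans, 0 lay above and 1, B3gntl1, below at a ratio of 0.691, and Casd1, which acetylates sialic acid, had a ratio of 1.10.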

How the data were processed

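Total RNA inputs of mouse colon epithelial cells were compared, 2 libraries labelled Ythdf1 KO with 2 labelled WT. Per the submitters' processing notes, the build was mm10 and the tools were deepTools 3.3.0, HOMER 4.10, MACS2 2.1.0, Bowtie2 2.2.5, SAMtools 1.3.1 and CASAVA 1.8. The sources used here do not give their roles, the counting program or its use of strand, so antisense, overlapping and near-identical genes may not be told apart. The authors deposited a normalised signal per transcript, without a transcript length, in which isoforms count shared reads again. No gene's kept transcript had a mean under 11.6, and genes that are not listed were not analysed. Per the file headers, the authors also deposited p-values, q-values and a log2 fold change, from a test that is not stated.

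For each gene the transcript with the highest mean was used. Genes reaching 1 in 2 or more libraries entered the fit of log2(value + 1) in limma 3.58.1 (with trend and robust settings, R 4.3.3), whose single term was the labelled genotype. The added 1 shrinks fold changes of low genes. A value at or near 0 in 1 library can instead enlarge a difference on this scale. Galnt16 had -1.96 at a ratio of group means of 0.98. The fit was tested on simulated data. Members and lists were chosen with earlier results of these data known. Values are given for members with an unadjusted p, or a q of the authors, under 0.05, the 2 with the highest mean in each role, enzymes of the cores and their first caps, and the 10 largest differences among separated members with a mean of at least 100. List genes were named by the authors' q under 0.05 or, failing that, the 2 highest means. Some further members and list genes were named after their values were seen. Whether replicate numbers pair the samples is not given, and the main fit did not pair them. Alternatives were another normalisation, pseudocount, filter or transcript, the replicate number as a block, and each library left out. The planned count tests were not run.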

Additional observations from a re-analysis of the deposited data

How the results depend on the processing

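No member passed an adjusted p of 0.05 in limma-trend under any of the 12 alternatives that were run, and neither did any other gene, with 2 to 11 members at an unadjusted p under 0.05. The median log2 difference of the members stayed between 0.08 and 0.16. With the replicate number as a block it was 0.11, with 0 members past the threshold, a smallest adjusted p of 0.648 and 1760 genes at an unadjusted p under 0.05, against 1257 without the block. Across genes, deviations of same-numbered samples from their group means correlated at -0.008, so same-numbered samples showed no shared shift. With 2 samples per group this cannot decide whether the numbers pair the samples, which the sources used here do not give. No gene passed the threshold with or without the block, so the calls cannot show an effect of it. With quantile normalisation the median of all genes was 0.00066, against -0.09, the members' median was 0.15, and the difference of Galnt6 turned to -0.087. On the most abundant curated transcript, an alternative chosen after seeing the data, the difference of Galnt14 turned to 0.19, where the groups of that transcript overlap. Leaving out each library in turn gave 27 to 37 members above and 17 to 22 below both WT libraries, where 3 libraries separate more easily than 4.

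Across these 4 fits, which were compared gene by gene for the 33 named and tested members alone, the log2 difference spanned 0 for B3gnt6 (-1.04 to 0.53), B4galnt1 (-0.82 to 0.059), B4galt6 (-0.21 to 0.0088), C1galt1c1 (-0.29 to 0.50), Fut4-ps1 (-4.20 to 2.48), Galnt4 (-0.040 to 0.41), Galnt6 (-0.12 to 0.13), Gcnt3 (-0.62 to 0.20), St3gal1 (-0.20 to 0.11), St3gal3 (-0.22 to 0.65), St8sia1 (-2.31 to 0.93) and St8sia5 (-1.14 to 0.14). The cause was not tested. The edgeR and DESeq2 alternatives on recovered reads were not run. The values of WT 2 were whole numbers of steps, but its step of 1.01 lay too close to 1 for the condition set for treating values as reads. Of the 18 members with a mean under 100, 14 differed over 5-fold between libraries of 1 group, and the part of depth in this was not tested.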
